A study of Mus musculus with 8 samples.

Results

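The cytosolic ribosome is built from rRNA and about as many different proteins as there are genes in the set described here, the Rpl genes for the large subunit and the Rps genes for the small subunit. The members are all non-control probes of the array whose gene name follows the Rpl or Rps numbering, together with Rplp0, Rplp1, Rplp2 and Rpsa and without the Rps6k kinases. They come to 130 probes of 78 genes, out of 41174 probes and 27962 gene names on the array. Of these genes 46 belong to the large subunit and 32 to the small one, and 38 have more than 1 probe. The rule reads gene names and no signal, though the set itself was picked with earlier results of these data known.

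RNA was measured on 8 one-colour Agilent arrays, 2 for each of 4 groups of sorted CD4+ T cells called Treg, CD44hi, CD44lo and naive, taken at 15 weeks of age from the spleens and lymph nodes, pooled, of male C57BL/6 animals. The series title names the Ox40-cre/ROSA-YFP mouse, in which a Cre enzyme driven by Ox40 (Tnfrsf4, a costimulatory receptor of activated T cells) switches on a yellow fluorescent protein for good. The labels give neither the sort gates nor the YFP status of a group, and do not say whether the 2 arrays of a group come from separate mice, so p-values measure the spread between arrays, which may be technical. In bulk samples fewer cells of a type and less RNA per cell cannot be told apart.

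Ribosomal protein mRNAs are among the most abundant in a lymphocyte, and they rise and fall together. Most of them begin with a C followed by a run of pyrimidines, the 5′ terminal oligopyrimidine tract, through which the mTORC1 kinase and the RNA-binding protein Larp1 set how much of the mRNA is translated. T cells that leave the naive state grow, make ribosomes and divide, with Myc as one of the factors that drive transcription of ribosome genes. An array measures the mRNA level and not its translation.

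The sequences around start sites are shown for the genes with the largest differences and for Rps27l. It was the only member with a positive difference from naive in CD44hi cells (0.09, not called). RefSeq (GRCm38.p6) lists start sites for 58 of the genes, and 39 of them (67.2%) hold an unbroken run of at least 10 pyrimidines (C or T, on the gene's strand) between 30 bases before and 50 bases after a listed start, against 16.1% of all 27025 genes in that table. The letters CCGGAAG, searched on both strands, stood in the 300 bases of 24 of the 58 genes (41.4%), against 9.93% of all genes. Each window has 30 bases, and capitals mark its longest pyrimidine run. At Rps27l an unmarked run of equal length, 9 bases, follows the marked one. The windows lie at chr16:33056468-33056497 (Rpl35a, plus strand), chr8:123102324-123102353 (Rpl13, plus strand), chr4:136053358-136053387 (Rpl11, minus strand), chr7:24884612-24884641 (Rps19, plus strand), chr17:33824563-33824592 (Rps28, minus strand), chr2:180257399-180257428 (Rps21, plus strand), chr7:116334161-116334190 (Rps13, minus strand) and chr9:66946056-66946085 (Rps27l, plus strand). With the listed start counted as 0, the first base shown lies at -30 for Rps28 and Rps27l, at -26 for Rpl13, at 0 for Rps13, at 6 for Rpl11, at 15 for Rpl35a and at 20 for Rps19 and Rps21, so a marked run need not be the terminal tract.
Rpl35a: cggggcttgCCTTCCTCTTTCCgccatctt
Rpl13: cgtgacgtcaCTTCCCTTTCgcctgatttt
Rpl11: ccggaagTCTCCCTCTCTCTTCCTgttctc
Rps19: cgcccgggaaaccccgtcgTTCCCTTTCCC
Rps28: tcccgaggaTTCCTgggtaccgcgtgcggt
Rps21: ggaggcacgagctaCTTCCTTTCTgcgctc
Rps13: tgagtggcgtcaCTTCCTgtgcggcttgat
Rps27l: cgcctccaCTCCTCTCCactcctccccgcc
The runs of Rpl11 and Rpl35a have 17 and 13 bases, and those of Rps28, Rps13 and Rps27l have 5, 6 and 9.

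Before any comparison, 1 array stood apart. The 75th percentile of the processed signal (background-subtracted, in scanner units) was 1165 and 1337 on the Treg arrays, 1208 and 1189 on the CD44hi arrays, 1045 and 1065 on the CD44lo arrays, and 991 and 639 on the naive arrays. Naive array 2 is thus the dimmest, and since levels were set relative to that percentile, values without it are given beside those with it. Members are bright: 127 of 130 were well above background on all arrays, 99 were read from the scanner's lower sensitivity setting on all arrays, and none was saturated. The sort labels held on the scale of log2 signal over the array's 75th percentile: Foxp3, the defining factor of regulatory T cells, was 2.77 and 2.68 in Treg cells, -0.24 and -0.10 in CD44hi cells, 0.35 and 0.84 in CD44lo cells, and -5.41 and -4.68 in naive cells.

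Ribosomal protein genes took the smallest part of the signal in CD44hi cells. As a share of the summed processed signal of all probes, which needs no scaling between arrays, the members made up 14.8% and 14.0% in Treg cells, 12.3% and 12.5% in CD44hi cells, 14.5% and 15.0% in CD44lo cells, and 15.8% and 18.7% in naive cells. Both CD44hi arrays lay below all other arrays and both naive arrays above all others, while Treg and CD44lo arrays overlapped. Without any scaling, the median log2 processed signal of the 128 members tested was 17.00 and 17.08 in Treg cells, 16.63 and 16.71 in CD44hi cells, 16.75 and 16.83 in CD44lo cells, and 16.96 and 17.09 in naive cells. On that scale CD44hi cells were again lowest, and Treg cells stood level with naive cells.

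**Figure D1:**
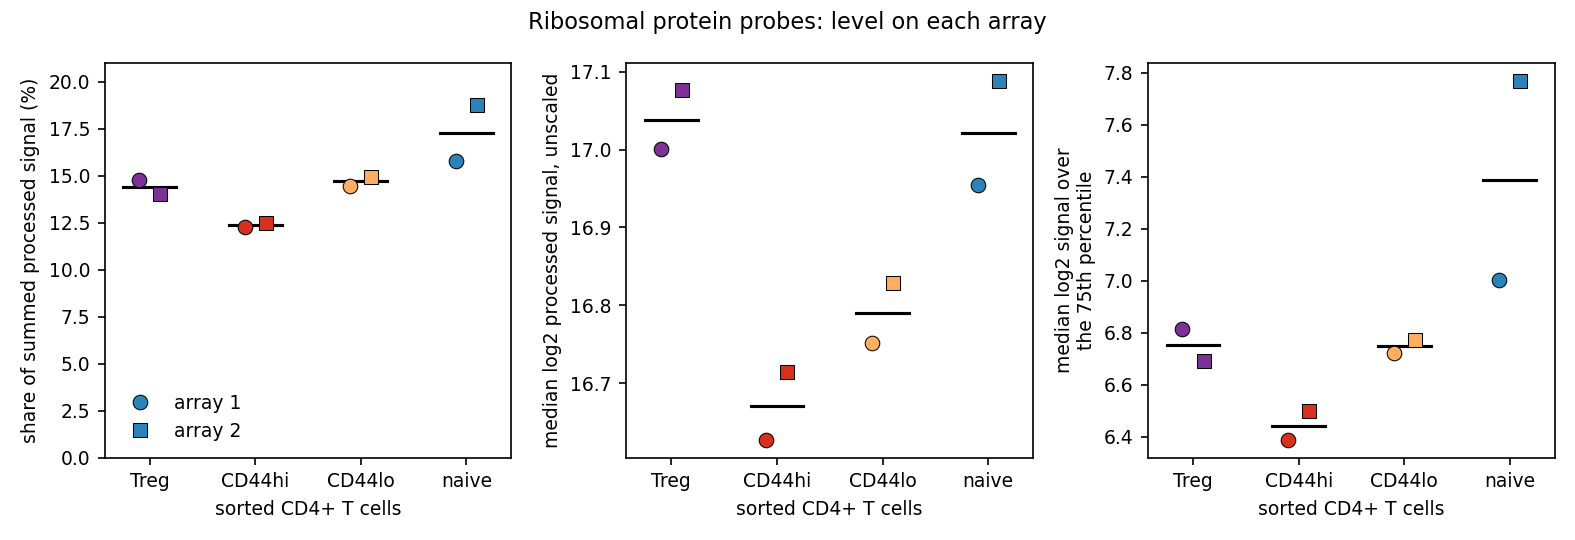
Level of the ribosomal protein probes on each array: share of summed processed signal in percent (left), median log2 processed signal without scaling (middle), and median log2 signal over the array's 75th percentile (right). Circles and squares are arrays 1 and 2, bars the group mean; the CD44hi arrays are lowest in all 3 panels (12.3% and 12.5% of signal), and naive array 2 lies above naive array 1.

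Taking the group means of log2 signal over the 75th percentile probe by probe, 119 of 128 members were lowest in CD44hi cells and 122 were highest in naive cells. The probes with another order included some of Rps27l, Rpl22, Rpsa, Rps6 and Rps4x, described further on.

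In CD44hi cells, ribosomal protein mRNAs fell against naive cells as a set. The median difference was -0.83 on the log2 scale, a 1.77-fold lower level, with an interquartile range from -1.03 to -0.70; 127 of 128 were negative. In limma's fit over all 27162 probes tested, 71 members (55.5%) of 53 genes passed a Benjamini-Hochberg adjusted p of 0.05 and all 71 were lower in CD44hi cells; 12.9% of all probes tested were called lower and 25.5% called in either direction. The 73 large subunit probes and the 55 small subunit probes had medians of -0.83 and -0.81. On slide 1 the median difference was -1.18 and on slide 2 -0.47, and 122 members (95.3%) were lower on both slides, against 39.3% of all probes tested. Slide 1 held CD44hi array 1 and naive array 2, and slide 2 held CD44hi array 2 and naive array 1. A slide effect and the dim naive array 2 can therefore not be told apart in that gap.

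The size of the median in CD44hi minus naive depended on which naive array was kept, and its side did not. Without naive array 2 it was -0.52 and without naive array 1 it was -1.15. The size also depended on the scaling with both naive arrays kept. Quantile normalization gave a median of -0.39 and shifting arrays by their median gave -1.09. Leaving out CD44hi array 1 or 2 gave 11 and 6 calls, and leaving out a Treg or CD44lo array gave 30 to 32, with medians between -0.86 and -0.79 in all 6 of those fits. The median of all probes tested was -0.11. Left unscaled, the arrays gave a median of -0.24 for the members with 14 called lower and 1 higher, and 0.48 for all probes. A set of 134 other probes with a mean signal over 100000, as bright as most members, had a median of -0.46. Of these, 114 were negative and 33 were called lower, so a negative sign was common among bright probes.

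**Figure D2:**
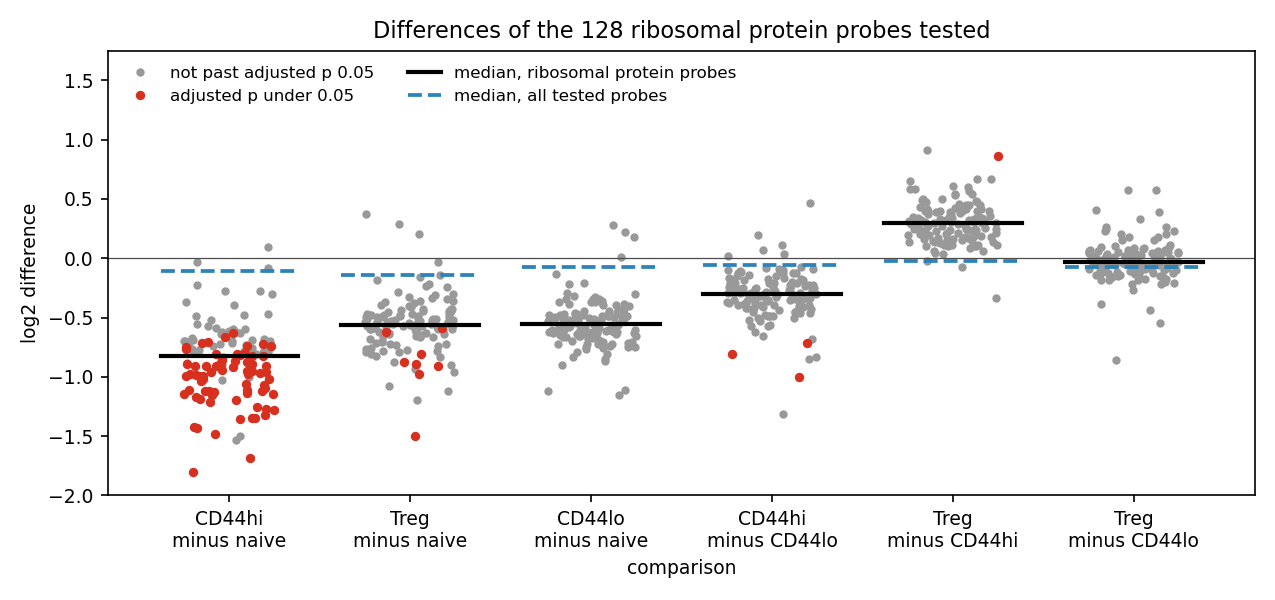
Log2 difference of each of the 128 ribosomal protein probes tested in the 6 comparisons. Red points passed adjusted p 0.05 in limma's fit over all probes, black bars are the members' medians and dashed blue bars the medians of all 27162 probes; in CD44hi minus naive the members' median is -0.83 against -0.11.

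The 5 members with the largest falls in CD44hi cells, among those called with the same sign on each slide and replicate number, belonged to Rpl35a, Rps13, Rpl13, Rpl11 and Rps19. All values here are log2 signal over the array's 75th percentile. Rpl35a, a large subunit protein mutated in some cases of Diamond-Blackfan anaemia in humans, read 2.99 and 2.97 in CD44hi cells and 4.16 and 5.40 in naive cells at probe A_52_P288669. Its difference was -1.80 (SE 0.37, limma adjusted p = 0.0156). Both CD44hi arrays lay below both naive arrays, which themselves lay far apart.

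Rps13, a small subunit protein, read 1.36 and 1.25 in CD44hi cells and 2.61 and 3.37 in naive cells at probe A_52_P646112 (difference -1.69, SE 0.25, limma adjusted p = 0.00419). A brighter probe of the same gene, A_51_P327469, read 7.67 and 7.78 in CD44hi cells and 8.16 and 8.81 in naive cells, and its difference of -0.76 (SE 0.24, limma adjusted p = 0.0594) did not pass. Both probes had the CD44hi arrays below the naive arrays.

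For Rpl13, a large subunit protein, probe A_52_P103513 read -1.47 and -1.56 in CD44hi cells and -0.13 and 0.06 in naive cells, a difference of -1.48 (SE 0.14, limma adjusted p = 0.000687). It and the Rps13 probe stayed past the threshold in all 21 alternatives that tested them, with differences from -1.75 to -0.89 for Rpl13 and from -2.07 to -1.10 for Rps13. The other probes of Rpl13 also fell, by 1.03 at A_51_P203420 and by 0.89 at A_52_P668076 on the log2 scale.

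Rpl11, which with Rpl5 and 5S rRNA can bind Mdm2 and so stabilise p53, read 0.65 and 0.37 in CD44hi cells and 1.91 and 1.97 in naive cells at probe A_52_P566208 (difference -1.43, SE 0.15, limma adjusted p = 0.00105). Its bright mRNA probe A_51_P394524 had a difference of -0.52 (SE 0.21, limma adjusted p = 0.112). Rpl5 at its only probe read 8.02 and 8.10 in CD44hi cells and 8.53 and 9.06 in naive cells and fell by 0.74 on the log2 scale (SE 0.20, limma adjusted p = 0.0388).

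Rps19, the small subunit protein most often mutated in Diamond-Blackfan anaemia in humans, read 6.98 and 7.04 in CD44hi cells and 8.02 and 8.84 in naive cells at probe A_52_P404955 (difference -1.42, SE 0.27, limma adjusted p = 0.0108). A second probe, A_51_P337290, fell by 1.35 on the log2 scale. The third Rps19 probe, A_52_P129131, and the Rps2 probe A_52_P182478 were not above background in both arrays of any group and were not tested. No CD44hi array reached the level of a naive array at either Rps19 probe that was tested.

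Of the stalk proteins, Rplp0 was called lower in CD44hi cells and Rplp1 and Rplp2 were not. Rplp0, the base of the stalk where elongation factors dock, read 6.21 and 6.13 in Treg cells, 6.01 and 6.12 in CD44hi cells, 6.39 and 6.31 in CD44lo cells, and 6.73 and 7.22 in naive cells. It fell by 0.91 in CD44hi cells (SE 0.19, limma adjusted p = 0.0167) and by 0.81 in Treg cells (SE 0.19, limma adjusted p = 0.0315), both on the log2 scale against naive. Its probe is placed by the files at chr8:101459316-101459375 (mm7), while RefSeq has Rplp0 on chromosome 5, so what it measures is uncertain; it was the only one of 128 placed members on another chromosome than its gene.

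The stalk's acidic proteins Rplp1 and Rplp2, among the brightest probes, had differences between CD44hi and naive cells of -0.49 (SE 0.21, limma adjusted p = 0.143) and -0.55 (SE 0.20, limma adjusted p = 0.0874). Neither passed, and both turned positive under quantile normalization, in the authors' deposited table and without scaling. Their direction is therefore not settled.

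Among proteins of the decoding and catalytic regions, Rpl3, which lies near the peptidyl transferase centre, fell in CD44hi cells by 0.97 (SE 0.20, limma adjusted p = 0.0165), and Rpl39, at the exit tunnel, by 1.12 (SE 0.21, limma adjusted p = 0.0114), both on the log2 scale against naive. Rps3, which sits at the mRNA entry, fell by 1.13 at A_52_P768, while A_51_P318642 gave -0.79 (limma adjusted p = 0.0627). Rps6, the ribosomal protein phosphorylated by S6 kinases downstream of mTORC1, read 6.59 and 6.66 in CD44hi cells and 7.18 and 7.89 in naive cells at A_51_P344734 and fell by 0.91 on the log2 scale (limma adjusted p = 0.0337). The dim Rps6 probe A_52_P531325 gave -0.37 (limma adjusted p = 0.423). Rps4x, a small subunit protein, gave -0.69 at A_51_P267995 (limma adjusted p = 0.059) and -0.08 at the dim A_52_P780667 (limma adjusted p = 0.896). Rpl10, which joins the large subunit last, missed the threshold at both probes (-1.03 and -1.0, limma adjusted p = 0.0549 and 0.061).

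Rpl13a, a large subunit protein that also takes part in silencing inflammatory mRNAs in human monocytes, fell by 0.63 on the log2 scale (limma adjusted p = 0.0468), the smallest of the called differences. Rps27a, made as a fusion with ubiquitin, gave -0.70 (limma adjusted p = 0.0529), and Rps27 gave -0.63 (limma adjusted p = 0.0955). Rpl3l, the muscle paralog of Rpl3, was near background, from -7.34 to -4.72 across arrays, and was the one member tested that was not well above background on every array; its difference of -1.53 (SE 0.61, limma adjusted p = 0.111) did not pass. The array has no probe named Rpl10l or Rpl39l.

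Most of the named differences between CD44hi and naive cells were smaller without naive array 2, and most calls held. Rpl35a then gave -1.18, Rps13 -1.30, Rpl13 -1.39 and Rpl11 -1.40 at the probes with the largest falls, and the Rps19 probes gave -1.01 and -0.95, all past the threshold in limma (adjusted p from 0.00254 to 0.0091). Rplp0 (-0.67), Rpl3 (-0.69), Rpl39 (-0.85), Rps3 at A_52_P768 (-0.65), Rps6 at A_51_P344734 (-0.56) and Rpl5 (-0.47) also stayed past it. Rpl13a did not (-0.41, limma adjusted p = 0.0522), while both probes of Rpl10 now passed (-0.52 and -0.48, limma adjusted p = 0.0324 and 0.0304).

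**Figure D3:**
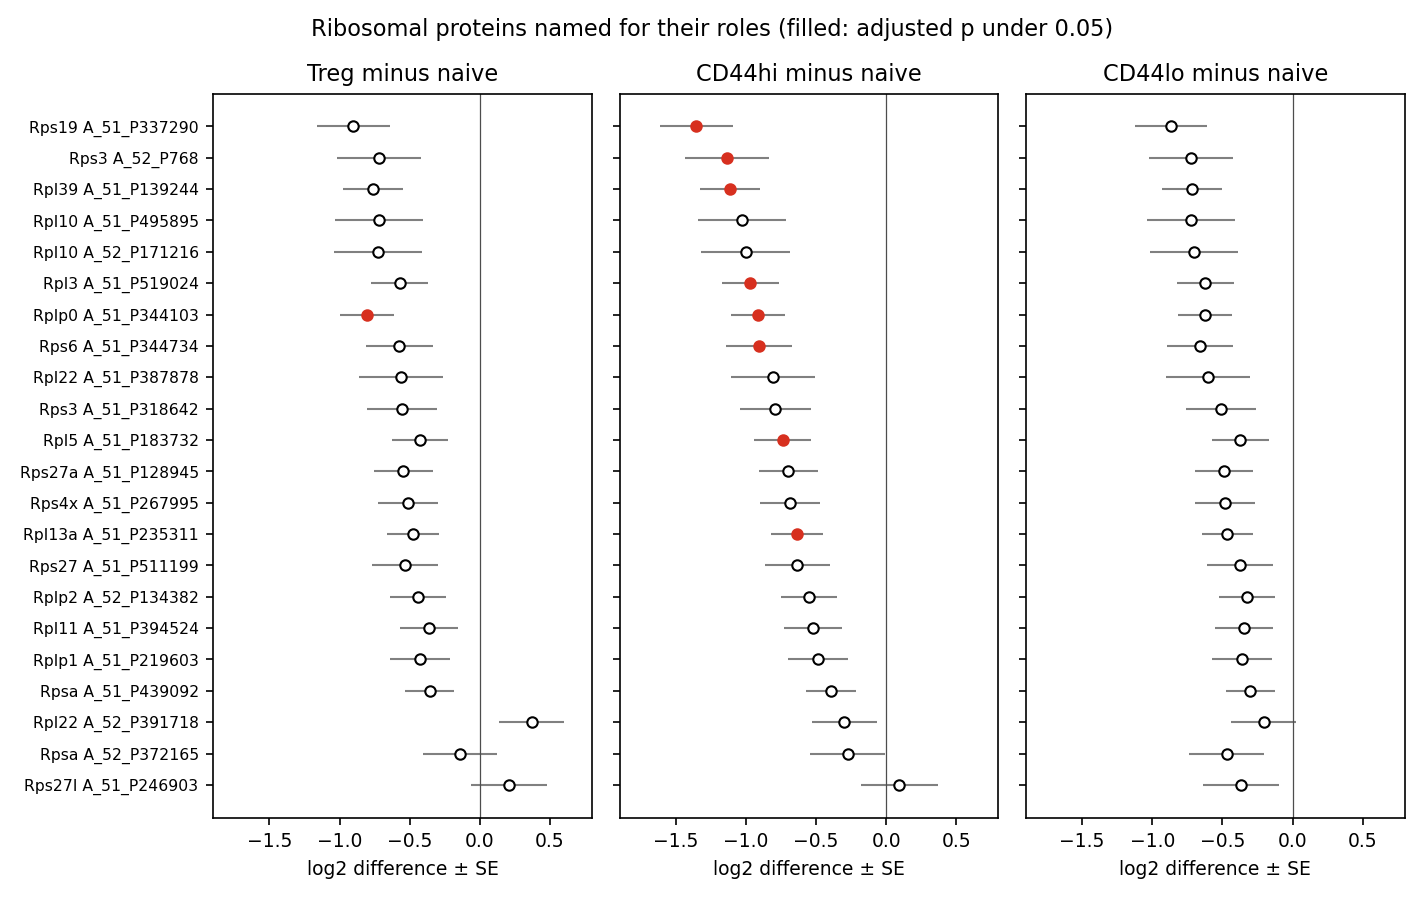
Log2 difference from naive cells, with its standard error, for the RefSeq-mRNA and U-accession probes of the ribosomal proteins named for their roles, in Treg, CD44hi and CD44lo cells. Filled points passed adjusted p 0.05 (limma, all probes); the order is that of CD44hi minus naive, from Rps19 (-1.35) at the top to Rps27l (0.09) at the bottom, and Rpl3l, near background, is not drawn.

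Rps27l was the one member not lower in CD44hi cells. This paralog of Rps27 is a p53 target. It read 3.87 and 3.82 in Treg cells, 3.65 and 3.82 in CD44hi cells, 3.21 and 3.33 in CD44lo cells, and 3.22 and 4.06 in naive cells, on the log2 scale over the 75th percentile. The differences from naive were 0.21 in Treg cells, 0.09 in CD44hi cells and -0.37 in CD44lo cells, with an SE of 0.27 each (limma adjusted p = 0.604, 0.823 and 0.454). The naive arrays lay far apart, 1 of them above all other arrays. Without naive array 2, Rps27l was higher than in naive cells by 0.63 in Treg cells and by 0.51 in CD44hi cells (limma adjusted p = 0.0348 and 0.0457), and without scaling by 0.86 and 0.68 (limma adjusted p = 0.0173 and 0.0338). Without naive array 1 the differences were -0.21 and -0.33, so the call rests on the scaling and on which naive array is kept.

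Rpl22, which binds viral and cellular RNAs and is needed for development of αβ T cells in mice, gave different patterns at its probes, which carry the same accession. The dimmer one, A_52_P391718, read 3.18 and 3.39 in Treg cells, 2.52 and 2.71 in CD44hi cells, 2.66 and 2.76 in CD44lo cells, and 2.61 and 3.22 in naive cells. Its difference in Treg from naive cells was 0.37 (SE 0.23, limma adjusted p = 0.289) and passed the threshold without naive array 2 (0.68, limma adjusted p = 0.0429) and in 3 scalings. The brighter probe, A_51_P387878, had a difference of -0.56 (SE 0.30, limma adjusted p = 0.225). Rpsa, the laminin-binding small subunit protein, gave -0.39 and -0.27 between CD44hi and naive cells at its probes, neither past the threshold.

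Against naive cells, Treg cells had fewer called members. The median difference was -0.56, a 1.47-fold lower level, and 125 of 128 were negative, 115 of them on both slides (89.8%, against 44.2% of all probes). Only 8 members (6.25%) of 7 genes were called, all lower, against 8.52% of all probes called lower. That share is near the background and no result about the set. Treg, CD44hi and CD44lo cells share the naive arrays in these comparisons. Without naive array 2 the median was -0.23 with 8 called lower and 2 higher, and without naive array 1 it was -0.87 with 115 called lower and 1 higher; leaving out any other array gave 0 to 2 calls. The direction was not settled: without scaling the median was 0.09 and with the positive-control probes as scale 0.18, against 0.50 and 0.59 for all probes. The 134 other bright probes had a median of -0.47, close to the members, and 118 of them were negative.

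The 5 with the largest falls in Treg cells were probes of Rps13, Rps28, Rps21 and Rpl11. Other tested probes of these genes were not called in Treg minus naive. They were A_51_P327469 of Rps13, A_51_P394524 of Rpl11, A_51_P335671 of Rps28, and A_52_P678800 and A_52_P740562 of Rps21. The called Rps13 and Rpl11 probes are the dimmer ones of their genes. Rps13 at A_52_P646112 read 1.5 and 1.48 in Treg cells, against 2.61 and 3.37 in naive cells, and fell by 1.5 on the log2 scale (SE 0.25, limma adjusted p = 0.00814). Rps28 fell at A_52_P232909 by 0.98 and at A_52_P55271 by 0.88, and Rps21 at A_51_P489959 by 0.91, on the log2 scale. Rpl11 at A_52_P566208 read 1.05 and 1.06 in Treg cells and fell by 0.89 (SE 0.15, limma adjusted p = 0.00932). Without scaling, Rps13 gave -0.85 (limma adjusted p = 0.0141) and was still called, while Rpl11 gave -0.24, Rps21 -0.26 and the Rps28 probes -0.33 and -0.23, none past the threshold. With the positive-control scale they gave -0.15, -0.17, -0.24 and -0.14, and Rps13 -0.76. Leaving out naive array 2 gave -1.12 for Rps13, -0.86 for Rpl11, -0.57 for Rps21, and -0.57 and -0.58 for Rps28, the last no longer past the threshold (limma adjusted p = 0.0532), and -0.56 for Rplp0. Treg arrays lay below both naive arrays at each of these called probes.

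CD44lo cells showed no called member against naive cells. The median difference was -0.56 and 124 of 128 were negative, 122 of them on both slides (95.3%, against 40.4% of all probes). In limma 0 of 128 passed, against 0.567% of all probes called lower, while 61 had an unadjusted p under 0.05. Other settings that kept both naive arrays called at most 2. Without naive array 1, 117 were called lower and 1 higher, and without naive array 2 only 1 was called lower, with medians of -0.87 and -0.23. The 134 other bright probes had a median of -0.41, and 118 of them were negative, so that sign was not particular to the members.

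Among Treg, CD44hi and CD44lo cells, compared without a naive array, CD44hi cells had the lower medians. The median of CD44hi minus CD44lo was -0.30, with 122 of 128 negative and 118 (92.2%) lower on both slides, against 42% of all probes. Only 3 members (2.34%) were called, all lower, against 2.78% of all probes. The median stayed below 0 in all 23 alternatives, from -0.37 to -0.04. Several of these change only the fit of the spread or arrays outside the comparison. Those leave the median at or near its main value and do not bear on its side. With the positive-control scale, the nearest to 0, 50 of 128 were positive, and without scaling the median was -0.12. The 134 other bright probes had a median of -0.17, with 103 negative. Without naive array 1 or 2, which do not enter the difference but change the shared spread, 22 and 21 were called lower, and without any other array 0 to 2 were. The median of Treg minus CD44hi was 0.30, with 125 positive and 115 (89.8%) higher on both slides, against 36.7% of all probes, and 1 member (0.781%) was called higher, against 3.7%; without naive array 1 or 2 there were 20 and 18, and without any other array 0. The median was positive under every alternative, from 0.19 to 0.46, though here too several alternatives could not move it. Of the 134 other bright probes, 92 were positive, with a median of 0.14. Treg minus CD44lo had a median of -0.03 and 0 called members in limma (1 at an unadjusted p under 0.05), against 1.46% called lower and 3.24% called higher among all probes; the direction changed with the scaling, up to 0.39 with the positive-control scale.

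The 3 members called between CD44hi and CD44lo cells were probes of Rpl13, Rpl11 and Rps20 that are dimmer than the main mRNA probe of the same gene. At Rpl13 A_52_P103513 the level was -0.70 and -0.62 in Treg cells, -1.47 and -1.56 in CD44hi cells, -0.52 and -0.52 in CD44lo cells, and -0.13 and 0.06 in naive cells. CD44hi minus CD44lo was -1.0 (SE 0.14, limma adjusted p = 0.0104) and Treg minus CD44hi was 0.86 (SE 0.14, limma adjusted p = 0.0181). At Rpl11 A_52_P566208 the values were 0.65 and 0.37 in CD44hi cells and 1.31 and 1.33 in CD44lo cells (difference -0.81, limma adjusted p = 0.0271). At Rps20 A_52_P142346 they were -2.02 and -2.24 in CD44hi cells and -1.34 and -1.48 in CD44lo cells (difference -0.72, limma adjusted p = 0.0446). The 4 groups kept one order at the Rpl13 and Rpl11 probes, with naive highest, then CD44lo, Treg and CD44hi, and no overlap between groups; at Rps20 Treg and CD44lo cells overlapped.

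The sequences of these probes are shown because each was called between CD44hi and CD44lo cells while the other tested probes of its gene were not. The first 30 of 60 bases of each are given, the dimmer probe before the main probe of its gene.
Rpl11 A_52_P566208: tggagtcagaattctcagacgttagtcttt
Rpl11 A_51_P394524: gttccagcagaagtacgatggaatcatcct
Rpl13 A_52_P103513: ttaataaattcaccagaatgtgccttacag
Rpl13 A_51_P203420: gaagccttctgctccgaagaagggagacag
Rps20 A_52_P142346: tgcaatgactacattgaatgtcccttagtt
Rps20 A_52_P5210: atcagtattgagccaggagttgaggttgaa
The files place the dim Rpl11 probe at chr4:135428479-135428538 (mm7, minus strand). The bright Rpl11 probe has 60 bases but spans 323, chr4:135428407-135428729, and the dim probe lies in the stretch that it skips and shares no 15 bases with it, as sequence of an intron of that mRNA would be placed. Rpl35a A_52_P369054, at chr16:32732112-32732171, lies in the same way inside the stretch skipped by the other Rpl35a probes; it was dim, from -5.04 to -4.19, and gave -0.28 between CD44hi and naive cells (limma adjusted p = 0.504). For Rpl13 and Rps20 the dim probes lie at chr8:121746485-121746544 and chr4:3758777-3758836, away from the main probes, and no exon map of that build was used here. Of the 128 members with a position, 42 span more than 100 bases, as probes across a splice junction do.

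**Figure D4:**
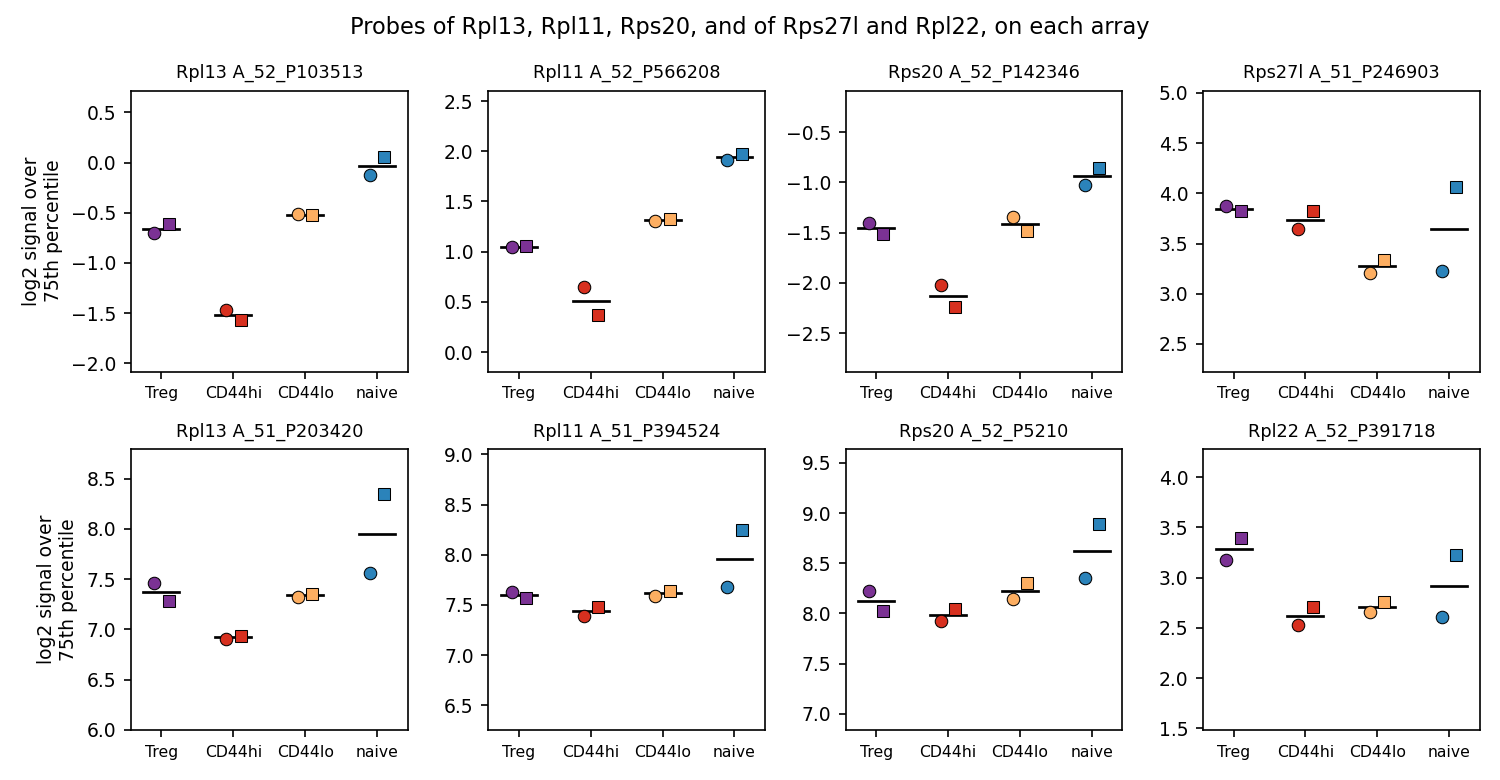
Log2 signal over the array's 75th percentile on each array for the dim (top) and main (bottom) probes of Rpl13, Rpl11 and Rps20, and for Rps27l (top right) and Rpl22 A_52_P391718 (bottom right). Circles and squares are arrays 1 and 2 and bars the group means, and all panels span the same range of log2 units; the dim probes separate CD44hi cells from all other groups, while at Rps27l the naive arrays lie at 3.22 and 4.06.

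Probe brightness did not order the fall in CD44hi cells. Members with a mean processed signal over 100000 (73 probes), from 10000 to 100000 (32 probes) and up to 10000 (23 probes) had median differences from naive of -0.81, -0.90 and -0.83. In CD44hi minus CD44lo the same classes gave -0.30, -0.30 and -0.46. Probes of RefSeq mRNAs and probes of other accessions had medians of -0.30 over 109 and -0.48 over 19 probes in CD44hi minus CD44lo. Their interquartile ranges overlapped (-0.39 to -0.21 and -0.63 to -0.27), and the gap was not tested.

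Ribosomal protein genes that the naming pattern leaves out were set beside the members. Of 11 probes of 6 such genes, 4 (36.4%) were called lower in CD44hi than in naive cells, against 12.9% of all probes, and 0 higher, with a median of -0.63 beside -0.11 for all probes. Rpl22l1, the paralog of Rpl22, fell by 1.03 in CD44hi cells (limma adjusted p = 0.00924) and by 0.83 in Treg cells (limma adjusted p = 0.0251), on the log2 scale against naive. Those values are from probe A_51_P218814. The other Rpl22l1 probe, A_52_P65897, was not called: it gave 0.23 in CD44hi cells (limma adjusted p = 0.355) and -0.15 in Treg cells (limma adjusted p = 0.554). The list again had 4 called lower without naive array 2 (median -0.38), and Rpl22l1 at A_51_P218814 gave -0.80 in CD44hi and -0.61 in Treg cells, both called. Rpl22l1 was the only one called in Treg cells, and 0 were called in CD44lo cells.

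Other lists of the translation apparatus ranged from well above the share of all probes called lower in CD44hi cells, 12.9%, to level with it. By gene name, 23 of 39 listed assembly genes, all 13 elongation and termination factors and 15 of 30 initiation factors were on the array. Of 40 probes of ribosome assembly and rRNA synthesis genes, 16 (40%) were called lower in CD44hi than in naive cells and 0 higher (median -0.51); Tsr1, an assembly factor of the small subunit, fell by 1.11 and Wdr43, a part of the early processome, by 1.04, on the log2 scale. Against CD44hi cells, Treg cells had 3 of these probes (7.5%) higher, against 3.7% of all probes, and 0 lower, among them nucleophosmin (Npm1, log2 difference 0.77, limma adjusted p = 0.0496) and nucleostemin (Gnl3, 0.77, limma adjusted p = 0.0256). Elongation and termination factors had 6 of 25 probes (24%) lower in CD44hi than in naive cells (median -0.48), with Btf3, part of the complex that meets the new chain at the exit tunnel, and the poly(A)-binding protein Pabpc1 falling by 1.23 and 1.22. Initiation factors had 5 of 39 lower (12.8%, the share of all probes; median -0.35), with the largest fall at Eif2s2, a subunit of the factor that brings the initiator tRNA, which fell by 1.47. Neither list had a probe called higher in that comparison. Without naive array 2, 17 of 40 assembly probes, 5 of 26 elongation and termination probes and 4 of 39 initiation probes were called lower, against 13.6% of all probes.

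Among regulators of ribosomal protein synthesis, 8 of 36 probes (22.2%) of 4 genes were called lower in CD44hi than in naive cells, against 12.9% of all probes, and 0 higher; 3 of the 8 are probes of Myc. Without naive array 2, 9 were called lower and 1 higher. Myc at A_51_P102096 read 3.62 and 3.37 in Treg cells, 1.45 and 1.37 in CD44hi cells, 2.35 and 2.42 in CD44lo cells, and 2.89 and 3.69 in naive cells. Its difference in CD44hi from naive cells was -1.88 (limma adjusted p = 0.00354), with CD44hi arrays below all others and Treg arrays level with naive ones; another Myc probe, A_52_P278549, was called higher in Treg than in naive cells (0.81, limma adjusted p = 0.0203). These differences were -1.48 and 0.63 without naive array 2, both called. Between Treg and CD44hi cells, 4 of the 36 (11.1%) were called higher in Treg cells, against 3.7% of all probes, and 0 lower. They were the 3 Myc probes, with 2.09 at A_51_P102096 (limma adjusted p = 0.00677), and a probe of Larp1. Larp1, which binds the pyrimidine tract, gave 0.77 (limma adjusted p = 0.0325). Mki67, a gene of dividing cells, was called higher than in naive cells in both groups at A_51_P253803. Its log2 difference from naive was 4.84 in Treg and 5.88 in CD44hi cells (limma adjusted p = 0.000494 and 0.000197). Between Treg and CD44hi cells it gave -1.05 and did not pass (limma adjusted p = 0.226).

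Some markers of other cells moved with the groups. All levels here are in units of the array's 75th percentile, and levels of different probes are not comparable. Of 8 B cell marker probes tested, 5 were called higher in CD44hi than in naive cells and 4 in Treg than in naive cells, against 12.6% and 10.6% of all probes, and 0 lower. The summed level of 8 B cell markers was 4.32 and 4.16 in Treg, 3.39 and 4.08 in CD44hi, 1.54 and 2.29 in CD44lo, and 0.210 and 0.380 in naive cells. Cd79b and Cd22 made up most of that sum. Cd79b, a B cell receptor chain, read 3.82 and 3.53 in Treg, 1.12 and 1.28 in CD44hi, 0.809 and 1.04 in CD44lo, and 0.122 and 0.249 in naive cells. Cd22, a B cell lectin, read 0.385 and 0.503 in Treg, 2.11 and 2.59 in CD44hi, 0.645 and 1.14 in CD44lo, and 0.0128 and 0.00546 in naive cells. Cd79a reached at most 0.0203 and Ms4a1 at most 0.0662 on any array.

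The sum of 7 CD8 T and NK cell markers was 7.30 and 7.69 in Treg, 6.59 and 6.18 in CD44hi, 8.64 and 7.51 in CD44lo, and 14.8 and 21.1 in naive cells. The naive level came from Cd8b1, a CD8 chain, at 8.69 and 13.4 in naive cells, and Klrd1, an NK receptor chain, at 6.07 and 7.61 in naive cells, while Cd8a reached at most 0.0485. In CD44hi cells Cd8b1 read 3.42 and 3.36 and Klrd1 1.42 and 1.03, and both were called lower than in naive cells. Other markers of the list rose. Of its 9 probes tested, 4 were called higher and 3 lower in CD44hi than in naive cells, against 12.6% and 12.9% of all probes. Gzmb read 0.827 and 0.772 in CD44hi cells and 0.00977 and 0.00793 in naive cells. Klrk1 read 0.142 and 0.179 in CD44hi cells and 0.0039 and 0.00523 in naive cells. Both were called higher. The sum of 7 myeloid markers ran from 0.494 to 1.23 and that of 7 T cell markers from 297 to 472. Single myeloid markers moved in opposite directions. Cybb read 0.833 and 0.743 in Treg, 0.812 and 0.804 in CD44hi, and 0.00573 and 0.00921 in naive cells. Itgax read 0.0179 and 0.016 in Treg, 0.045 and 0.0351 in CD44hi, and 0.122 and 0.157 in naive cells. Against naive cells, Cybb was called higher and Itgax lower in both Treg and CD44hi cells. The part of these markers in the results was not tested.

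**Figure D5:**
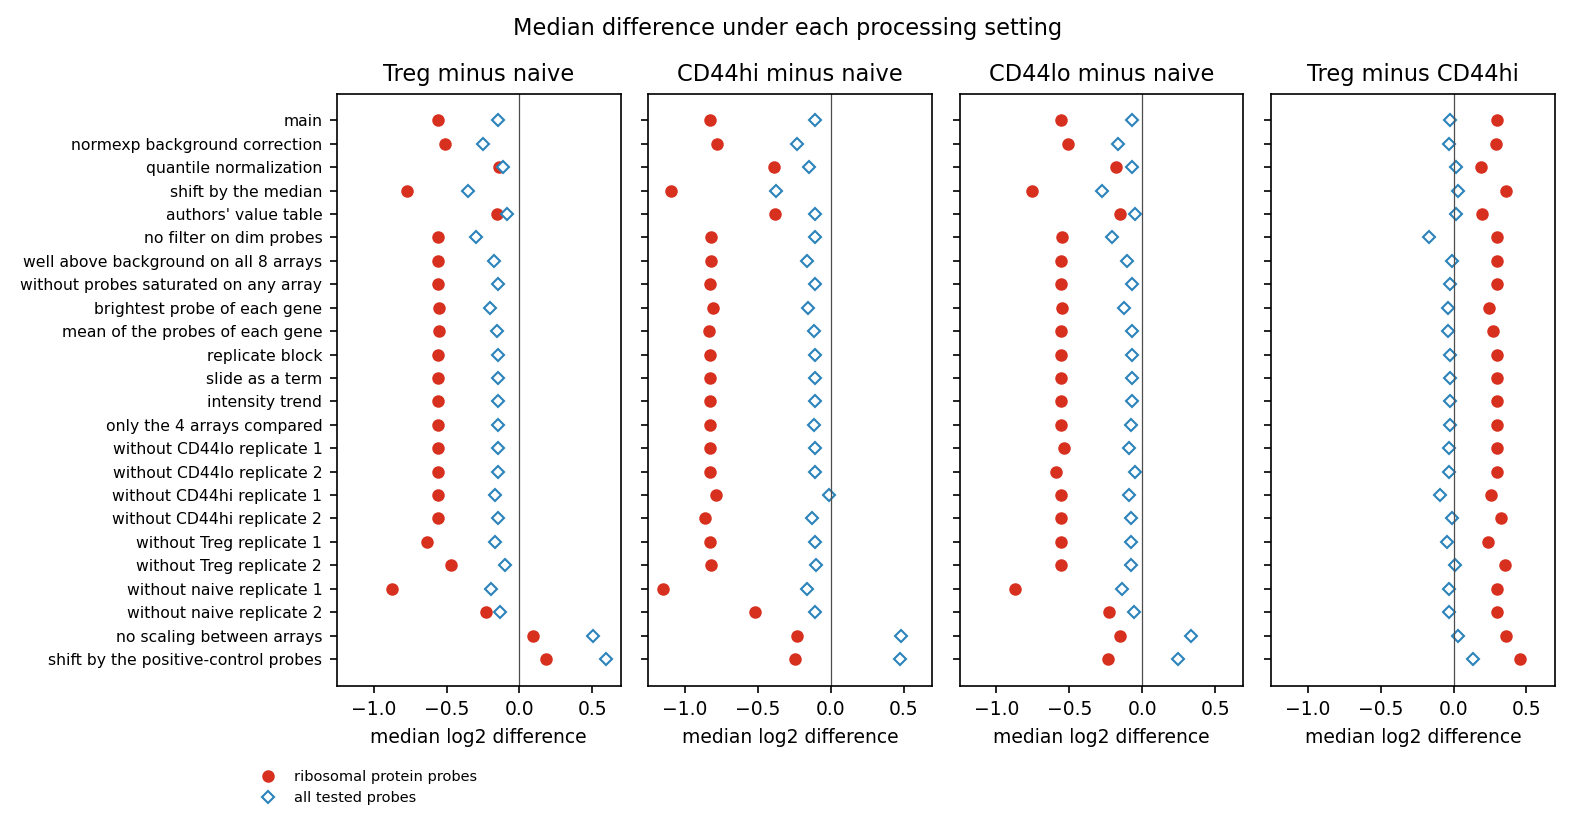
Median log2 difference of the ribosomal protein probes (red circles) and of all probes tested (open blue diamonds) under each processing setting, in 4 comparisons. In CD44hi minus naive the members' median is below 0 and below that of all probes in every setting. Settings that do not change the compared values repeat the main median. In Treg minus naive the members' median crosses 0 in the bottom rows, without scaling (0.09) and with the positive-control scale (0.18).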

How the data were processed

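The deposited scanner output of 8 one-colour arrays (software Agilent Feature Extraction 9.5.1.1, as its headers state) gives each spot's intensity, per the file headers background-subtracted in the processed column and with no normalization between arrays; flag columns (unit other) mark background, saturation and outliers. The authors' deposited value table is on a log2 scale; its column medians lie between 6.86 and 6.88, how it was centred is not given in the sources used here, and it served as an alternative. Spots of a probe were averaged without outlier spots. Processed signals were divided by the 75th percentile of their array, and their log2 was fitted with limma 3.58.1 in R 4.3.3 (lmFit, eBayes, all 8 arrays, 4 residual and 2.57 prior degrees of freedom) for 27162 probes that the image software had called well above background in every array of 1 or more groups, in 6 comparisons, with Benjamini-Hochberg adjustment over all of them and a threshold of 0.05. The code was tested on simulated data. Named members were those of a list of roles, and per comparison up to 5 in each direction called with the same sign on each slide and replicate number; up to 2 called genes were named per other gene list and direction. Members, roles and lists (elongation and termination factors, initiation factors, ribosome assembly, regulators, ribosomal proteins outside the pattern, mitochondrial ribosomal proteins, markers of other cells and of the sort) were chosen with earlier results of these data known, and lists are described by counts and medians without a test; some of their genes are not reported here. Of 130 member probes 128 carry a symbol that RefSeq uses (Rps3a is now Rps3a1), and all 109 with a RefSeq mRNA accession matched the same gene. Probe positions are on mm7, per the file headers; RefSeq start sites are on GRCm38.p6, and the 2 were not mixed. Probes can also bind RNA of near-identical pseudogenes. The number of arrays limits the precision: with 2 arrays a group, the smallest p of an exact permutation test is 0.333.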

Additional observations from a re-analysis of the deposited data

How the results depend on the processing

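The members' median in CD44hi minus naive was below 0, and below that of all probes, in all 23 alternatives (-1.15 to -0.24). The gap between the medians is fixed by construction where whole arrays are shifted. The members' median itself stays at or near its main value where only the fit of the spread or arrays outside the comparison change. Those alternatives do not bear on its side. In Treg minus naive the members' median was below 0 in 21 of 23. Counts of called members are out of 128 probes unless stated, and the cause of a change was not tested except where fewer probes, genes or arrays entered. Shifting arrays by the median called 120 in CD44hi minus naive, 46 in Treg minus naive and 1 in CD44lo minus naive. Without scaling between arrays, chosen after seeing the data, 15 were called in CD44hi minus naive, 3 in Treg minus naive (2 of them higher, so the direction turned) and 0 in CD44hi minus CD44lo and in Treg minus CD44hi. With the positive-control scale, also chosen after seeing the data, the counts were 13, 3 (again 2 higher), 1 in CD44lo minus naive, 0 in CD44hi minus CD44lo and 2 in Treg minus CD44lo. Normexp background correction called 27 in Treg minus naive and 1 in CD44lo minus naive, and quantile normalization 1 in CD44lo minus naive and 4 in Treg minus CD44hi. The authors' deposited table gave 15 in Treg minus naive, 1 in CD44lo minus naive, 11 in CD44hi minus CD44lo and 10 in Treg minus CD44hi. With no filter on dim probes (130 members) the counts were 25 in CD44hi minus naive, 2 in Treg minus naive, 1 in CD44hi minus CD44lo and 0 in Treg minus CD44hi. Testing only probes well above background everywhere gave 2 in Treg minus CD44hi. Over 78 genes, the brightest probe of each gave 45, 4, 0 and 0 in those 4 comparisons, and the mean of its probes 5 in Treg minus naive and 0 in CD44hi minus CD44lo. An intensity trend gave 20 in Treg minus naive, 2 in CD44lo minus naive and 2 in Treg minus CD44hi. Fitting only the 4 arrays compared gave 6 in CD44hi minus naive, 1 in Treg minus naive and 8 in CD44hi minus CD44lo.

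Leaving out 1 array at a time gave 6 to 119 in CD44hi minus naive, 0 to 116 in Treg minus naive, 0 to 118 in CD44lo minus naive, 0 to 22 in CD44hi minus CD44lo, 0 to 20 in Treg minus CD44hi and 0 to 1 in Treg minus CD44lo; a lone array was assumed to vary like the other groups. Deviations of same-numbered arrays correlated from 0.011 to 0.344 (median 0.243) over 6 pairs of groups, so same-numbered arrays shared some deviation, but hardly any in the lowest pair, and were not taken as pairs. With the replicate block, 73 were called in CD44hi minus naive, 6 in Treg minus naive, 5 in CD44hi minus CD44lo and 2 in Treg minus CD44hi, and with slide as a term 62 in CD44hi minus naive and 7 in Treg minus naive.

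Named differences from naive in CD44hi cells turned positive at Rplp1, Rpl11 A_51_P394524, Rpsa A_51_P439092 and Rplp2 under quantile normalization (0.20, 0.0858, 0.11 and 0.14), in the authors' deposited table (0.19, 0.045, 0.075 and 0.11), without scaling (0.10, 0.0679, 0.20 and 0.0391) and with the positive-control scale (0.10, 0.0605, 0.19 and 0.0317). Rps27 turned positive in the authors' deposited table (0.07). Rpsa A_52_P372165, Rpl22 A_52_P391718 and Rps6 A_52_P531325 turned positive without naive array 2 (0.0829, 0.0109 and 0.0419, the other end over the left-out arrays being -0.63, -0.61 and -0.78), without scaling (0.32, 0.29 and 0.22) and with the positive-control scale (0.31, 0.28 and 0.21). The dim Rps4x probe A_52_P780667 gave 0.23 without CD44hi array 1, 0.34 without naive array 1 and -0.51 without naive array 2, 0.51 without scaling and 0.50 with the positive-control scale. Rps27l turned negative with the median shift (-0.17, and -0.00168 in Treg cells) and without naive array 1 (-0.33, and -0.21 in Treg cells, against 0.51 and 0.63 without naive array 2).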

Other observations

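Mitochondrial ribosomal protein genes, which serve translation inside mitochondria, had a median difference nearer to 0 than the cytosolic ones. Of 121 probes of 75 genes, 5 (4.13%) were called lower in CD44hi than in naive cells, against 12.9% of all probes, and 0 higher, with a median of -0.27 beside -0.83 for the cytosolic members and -0.11 for all probes. The largest fall was that of Mrpl17, by 1.16 on the log2 scale (limma adjusted p = 0.016), followed by Mrpl23, by 0.95 (limma adjusted p = 0.0336). In CD44hi minus CD44lo the median of the mitochondrial set was 0.08, against -0.30 for the cytosolic members, with Mrpl17 the only probe called, at -1.07 (limma adjusted p = 0.0481). In Treg minus naive 2 were called lower, among them Mrps18b at -0.95 (limma adjusted p = 0.0123), and in CD44lo minus naive 0 were, where the median was -0.37. Without naive array 2, 8 were called lower and 3 higher in CD44hi than in naive cells, with a median of -0.02, and Mrpl17 gave -1.30 and Mrpl23 -0.58. The difference between the mitochondrial and the cytosolic set was not tested.

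Erythroid and platelet markers split the arrays by replicate number and not by group. In units of the array's 75th percentile, their summed level was 1.13 in Treg, 1.03 in CD44hi, 1.35 in CD44lo and 1.16 in naive cells on the arrays numbered 1, and 0.17 in Treg, 0.236 in CD44hi, 0.208 in CD44lo and 0.293 in naive cells on those numbered 2. None of their 8 probes was called between groups in limma's 6 comparisons.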
